A study of Mus musculus with 3 samples.

Results

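The genes of 5 kainate receptor subunits (Grik1, Grik2, Grik3, Grik4 and Grik5) and of 1 delta receptor (Grid1) were followed through the lumbar spinal cord of SOD1G93A and WT mice. These 6 genes were chosen by symbol from the 31040 genes of the UMI table, and all 6 were found. Single nuclei came from 12 mice that were 90 days old. The SOD1G93A mice carried the human SOD1 transgene of the strain B6.Cg-Tg(SOD1*G93A)1Gur/J, and the WT mice were their C57BL/6J littermates without it. Each genotype had 3 females and 3 males. Nuclei of each mouse carried a hashtag, and each of the 3 pools (A, B and C) held 1 female and 1 male of each genotype, 4 mice in all. WT and SOD1G93A mice of the same sex in the same pool are called a pair here, which gives 6 pairs. The transgene is present in all cells of the animal, so an effect of genotype in one class of cells cannot be told apart from an effect that reaches it from others.

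Kainate and delta receptors are tetramers of the ionotropic glutamate receptor family. The subunits encoded by Grik1, Grik2 and Grik3 (GluK1, GluK2 and GluK3) form channels on their own, whereas those of Grik4 and Grik5 (GluK4 and GluK5) bind kainate with higher affinity and reach the membrane as functional channels only together with the former. Grid1 encodes GluD1, which works mainly as a synaptic organizer that binds cerebellins secreted from the axon terminal. In the spinal cord, kainate receptors are known best from sensory transmission in the dorsal horn.

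The table held 206486779 UMIs of 14662 nuclei, with a median of 9434 UMIs per nucleus. Mice contributed 548 to 2259 nuclei and 6411715 to 36668441 UMIs. The authors' annotation gave 10 cell types, and 9 sub-types of the 8800 neurons that were not motor neurons, among them 1 of neurons that could not be assigned. Motor neurons were few, with 67 nuclei in all and 1 to 11 per mouse. Of the 14647 barcode sequences, 15 occurred in 2 pools and 0 in 3. Levels are the UMIs of a gene per 1000000 UMIs of a class in a mouse (CPM), given as mean ± SD over mice. Such a level does not separate fewer nuclei that contain a transcript from less of it per nucleus.

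The labels were compared with marker genes. Chat, Prph and Slit3, markers of motor neurons, summed to 1387 ± 454 CPM in motor neurons (n = 12 mice) and to 90.5 ± 16.6 CPM in the other neurons. In ventral cholinergic neurons (VC), Chat alone, which encodes the enzyme that makes acetylcholine, was at 54.5 ± 33.4 CPM (2.74 to 124 CPM over mice), against 155 ± 62.5 CPM in motor neurons and 5.13 ± 3.02 CPM in the other neurons together. VC neurons also held the vesicular glutamate transporter gene Slc17a6 at 107 CPM, about the level in dorsal excitatory neurons (116 CPM), against 12.1 CPM in motor neurons, so the markers of this class are not those of cholinergic neurons alone. In the Schwann and meningeal class, Schwann cell markers summed to 126 CPM while oligodendrocyte markers summed to 3543 CPM, and its nuclei had a median of 1584 UMIs, so its label is used here only as a name. Microglia had a median of 46927 UMIs per nucleus, the second highest after motor neurons (53245 UMIs). Microglial markers summed to 80.9 CPM there, against 14.2 CPM in neurons, but neuronal markers summed to 2164 CPM, oligodendrocyte markers to 1577 CPM and OPC markers to 686 CPM in the same class. The name microglia is thus also used as the label gives it.

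The 6 genes together gave 701715 UMIs. Grik2 was counted most, with 388748 UMIs, and Grik5 least, with 13434 UMIs. Between 75.8% (Grik4) and 84.6% (Grik1) of the UMIs of each gene lay in neurons other than motor neurons. This class also held 8800 of the 14662 nuclei, with a median of 12864.5 UMIs per nucleus against 9434 over all nuclei. A large share is thus given by depth alone, and these percentages do not by themselves show enrichment in neurons. Intronic reads were counted, so that long genes can collect more UMIs, which was not tested here. On GRCm38, Grik1 spans chr16:87895900-88290265 (minus strand), Grik2 chr10:49094833-49788766 (minus strand), Grik3 chr4:125490700-125714173 (plus strand), Grik4 chr9:42518135-42944493 (minus strand), Grik5 chr7:25009849-25072346 (minus strand) and Grid1 chr14:34820108-35583379 (plus strand). These spans range from 62.498 kb for Grik5 to 763.272 kb for Grid1.

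In neurons other than motor neurons, the level was 2100 ± 139 CPM for Grik2, 919 ± 101 CPM for Grid1 and 517 ± 54.2 CPM for Grik1 (n = 12 mice each). The other levels were 211 ± 26.8 CPM for Grik4, 84.7 ± 7.19 CPM for Grik3 and 73.5 ± 5.41 CPM for Grik5. Per 100 kb of gene span, Grik2 led with 303 CPM. Grik1, Grid1 and Grik5 then lay close to each other at 131, 120 and 118 CPM per 100 kb. Grik4 followed with 49.5 and Grik3 with 37.9 CPM per 100 kb. Thus Grik5, the gene with the fewest UMIs, was near Grik1 and Grid1 per 100 kb of gene span.

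The levels differed between neuron classes by gene, and these differences are given as a description over the 12 mice. Sub-types are named by position (D, dorsal; M, mid; V, ventral) and transmitter (E, excitatory; I, inhibitory), with VC for ventral cholinergic neurons and VM for ventral neurons of mixed transmitters. The markers of inhibitory neurons summed to 343 CPM in DI and to 41.2 CPM in DE, whereas Slc17a6 was at 11.8 CPM in DI.

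Grik2, whose subunit is the most widespread kainate receptor channel, was highest in the inhibitory neurons outside the ventral horn. It reached 4099 ± 413 CPM in MI and 3573 ± 270 CPM in DI. All other neuron classes lay between 2151 CPM (unassigned neurons) and 1175 ± 115 CPM (DE). In all 12 mice DI was above the unassigned neurons, the next class in order, and VI, the last but one, was above DE. From the unassigned neurons down to VI, the steps between neighbours were smaller than the spread between mice. Within the dorsal horn, Grik2 was 3.04 times as high in inhibitory as in excitatory neurons, a log2 difference (DE minus DI) of -1.61 ± 0.17 (SD) with the same sign in 12 of 12 mice. In the mid region that difference (ME minus MI) was -1.28 ± 0.28, and again all mice had the higher level in inhibitory neurons. In the ventral horn it was only 0.09 (VE minus VI).

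Grik3 showed the same leading classes, MI with 190 ± 38.2 CPM and DI with 180 ± 24.3 CPM. It was at 30.4 ± 6.94 CPM in DE and was lowest in motor neurons, with 6.98 ± 8.12 CPM. The difference between DI and DE was the largest of the 6 genes on the log2 scale, with DE lower by 2.55 ± 0.42 in all 12 mice, or 5.94-fold. MI and DI themselves were not ordered, since MI was the higher one in 6 of 12 mice.

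Grik1 was highest in VC neurons, at 945 ± 334 CPM, and in DI neurons, at 827 ± 84.9 CPM. VC was above DI in 7 of 12 mice, so that their order is not settled. Ventral excitatory neurons had 310 CPM. Motor neurons had 68.2 ± 57.0 CPM, which was below VE in 12 of 12 mice. Thus motor neurons and VC neurons stood at opposite ends for Grik1.

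Of the 2 genes for high-affinity subunits, Grik4 was lower in dorsal than in ventral neurons. It was lowest in DE, at 114 ± 22.6 CPM, and reached 285 CPM in VE, a log2 difference (DE minus VE) of -1.32 ± 0.26 that had the same sign in 12 of 12 mice. DI, with 166 CPM, was above DE in every mouse. Over all mice, motor neurons had the highest mean, 426 ± 192 CPM, followed by VM with 385 ± 121 CPM, and were above VM in 6 of 12 mice. This rank came from the WT mice, with means of 551 CPM in motor neurons and 404 CPM in VM. In SOD1G93A mice motor neurons had 301 CPM, below VM (366 CPM) and ME (330 CPM).

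Grik5 was higher in DE and DI than in VE and VI, but a ventral class, VC, had its highest mean. Its level was highest in VC, at 101 ± 24.7 CPM, and in DE, at 97.7 ± 7.28 CPM, and lowest in VI and motor neurons, at 53.4 and 50.8 ± 14.5 CPM. DE was above VE in all 12 mice, by 0.83 ± 0.17 on the log2 scale. By the ratio of the highest to the lowest class mean, Grik5 varied less over neuron classes than the other 5 genes.

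Grid1 was highest in DE, at 1298 ± 140 CPM, and in motor neurons, at 1187 ± 203 CPM. It was lowest in DI, at 285 ± 55.6 CPM, and next lowest in MI, at 651 CPM. MI was above DI in 12 of 12 mice, and VM, the next class in order, was above MI in 12 of 12. DE was 4.56 times as high as DI, a log2 difference of 2.2 ± 0.22 with one sign in all mice. In the dorsal horn, Grid1 thus ran opposite to Grik2 and Grik3. In the ventral horn, excitatory and inhibitory neurons differed by 0.07 on the log2 scale.

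**Figure D1:**
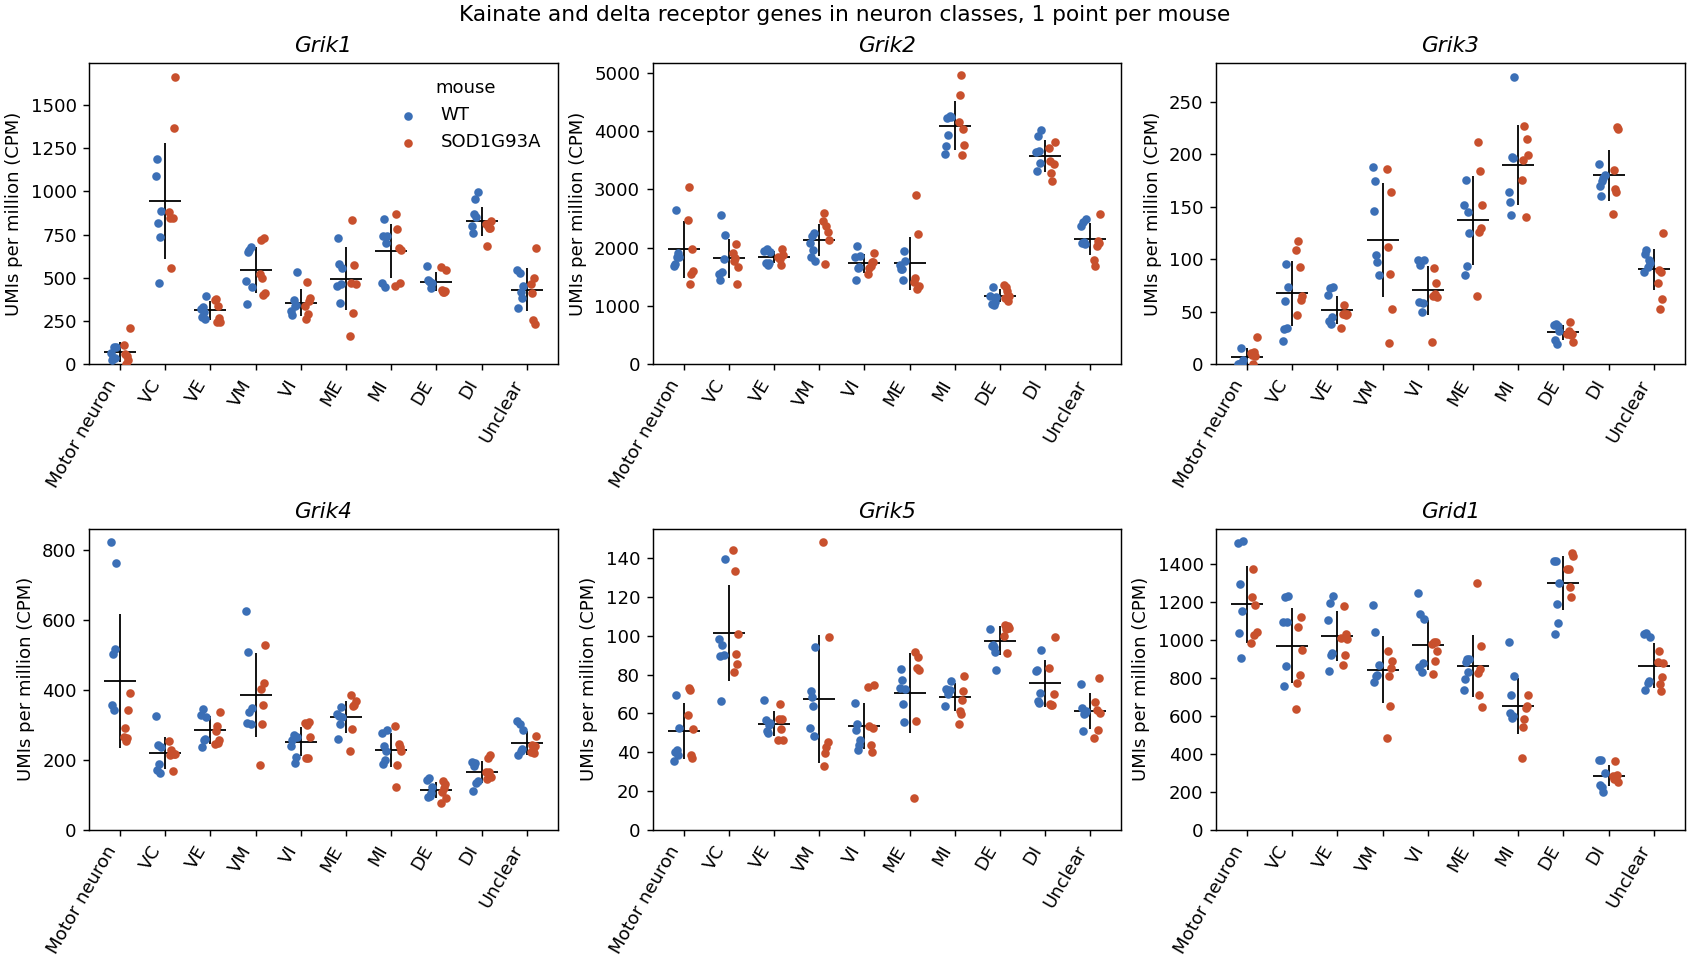
Level of each gene (CPM, vertical axis from 0) in 10 neuron classes (horizontal axis), with 1 point per mouse, WT in blue and SOD1G93A in red, and the mean ± SD of the 12 mice in black. Grik2 and Grik3 are highest in MI and DI, Grid1 is lowest in DI, and Grik1 and Grik3 are lowest in motor neurons, where Grik4 has a mean of 551 CPM in WT and 301 CPM in SOD1G93A.

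Motor neurons and VC neurons, the class labelled ventral cholinergic, differed in kainate receptor genes. Grik1 was at 68.2 CPM in motor neurons against 945 CPM in VC, and Grik3 at 6.98 against 67.5 CPM. Both were lower in motor neurons in 12 of 12 mice, by log2 differences of -4.37 ± 1.83 and -3.89 ± 1.65 that rest on few motor neuron UMIs (261 and 27). Grik4 was higher in motor neurons in all 12 mice, by 0.87 ± 0.52, and so was Grid1, by 0.30. Grik2 differed little (0.10 on the log2 scale, higher in 8 of 12 mice). With scaling factors fitted over all classes, each of these directions was kept, but Grik4 and Grid1 were then higher in motor neurons in 10 of 12 mice each.

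In single motor neuron nuclei, Grik2, Grik4 and Grid1 had at least 1 UMI in all 67 nuclei. Grik1 had a UMI in 21 of 44 WT and 16 of 23 SOD1G93A nuclei. Grik3 had one in 3 and 9 nuclei of the same groups. The motor neuron nuclei had a median of 43895 UMIs in WT and of 60146 UMIs in SOD1G93A, so these last shares were taken at different depths.

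The genes most like each member were read from the Pearson correlation of mean log2(CPM + 1) over 16 classes, among 13044 genes, as a description. The classes share mice and pools, and they differ in depth. Grik1 was most like Dcx (r = 0.97), Lrrc3b and Gabrg3. Grik2 was most like Dock3 (r = 0.92), Xkr4 and Elovl6, and Grik3 like Mpped2 (r = 0.93), Chrm3 and Kcnmb2. For Grik4 they included Frmd4a (r = 0.96) and Lrrtm3, and for Grik5 they were Astn1 (r = 0.98), Syn2 and Prr16. Grid1 was most like Tmem132e (r = 0.96), Tmem266 and Dscam. Among the 6 genes themselves, Grik4 and Grid1 were most alike (r = 0.86) and Grik3 and Grid1 least (r = 0.28).

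Outside neurons, the 6 genes were read against transcripts that glia should lack. The neuronal markers Rbfox3, Snap25, Syt1 and Grin1 were summed, and their level in each glial class was expressed as a percentage of that in neurons of the same mouse. This background was 27.8 ± 8.30% in astrocytes, 25.7 ± 6.44% in oligodendrocytes, 43.8 ± 11.2% in oligodendrocyte precursor cells (OPCs) and 65.1 ± 6.24% in microglia (n = 12 mice each). The 4 markers did not lie together in every class. In astrocytes Snap25 was at 56.5 ± 28.9% of its neuron level and the other markers were at 16.6% to 19.6%. In oligodendrocytes Snap25 was at 36.1%, while in OPCs the 4 markers ranged from 38.1% to 52.9% and in microglia from 64.5% to 65.5%. Doublets within a mouse were not marked in the table.

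In astrocytes, Grik5 stood at 98.9 ± 16.3% of its level in neurons and Grik4 at 80.0 ± 16.7%, and both were above the summed markers in 12 of 12 mice. Both means were also above that of Snap25 alone. Grik1, at 21.8%, was above them in 3 mice. Grid1, at 42.8%, and Grik2, at 39.1%, were above the sum in 11 of 12 mice, but their means lay below that of Snap25. Grik3, at 26.2%, was above them in 5 mice, and the means of Grik1 and Grik3 lay below the summed markers. The high-affinity subunit genes thus had means above the summed markers in astrocytes, where their levels were 170 ± 48.9 CPM for Grik4 and 72.4 ± 11.1 CPM for Grik5.

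In oligodendrocytes, Grik2 was the highest relative to neurons, at 75.7 ± 7.91%, or 1585 ± 148 CPM. Grik4, Grik5 and Grik1 followed with 59.6%, 50.1% and 49.2%, and all 4 were above the markers in every mouse. Grid1, at 28.0%, and Grik3, at 28.6%, lay near the background.

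In OPCs, all 6 genes had means above the markers. Grik3 was at 125 ± 44.4% of the neuron level and Grik4 at 117%, above the markers in 12 and 11 of 12 mice. Grid1, at 90.0%, and Grik2, at 88.4%, were above in all mice. In microglia, the 6 genes ranged from 65.8% to 91.0%, beside markers at 65.1%. Grik2, at 91.0%, Grik3, at 90.2%, and Grik5, at 86.1%, were above the markers in 11 of 12 mice each. Grik4 was above in 10, Grid1 in 8 and Grik1 in 7 of 12 mice. Endothelial cells had 4.98% to 16.2% of the neuron level, beside markers at 9.81%. Ependymal cells had Grik4 at 164 ± 72.0%, above the markers in 11 of 11 mice that had such nuclei, but this rested on 86 UMIs.

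**Figure D2:**
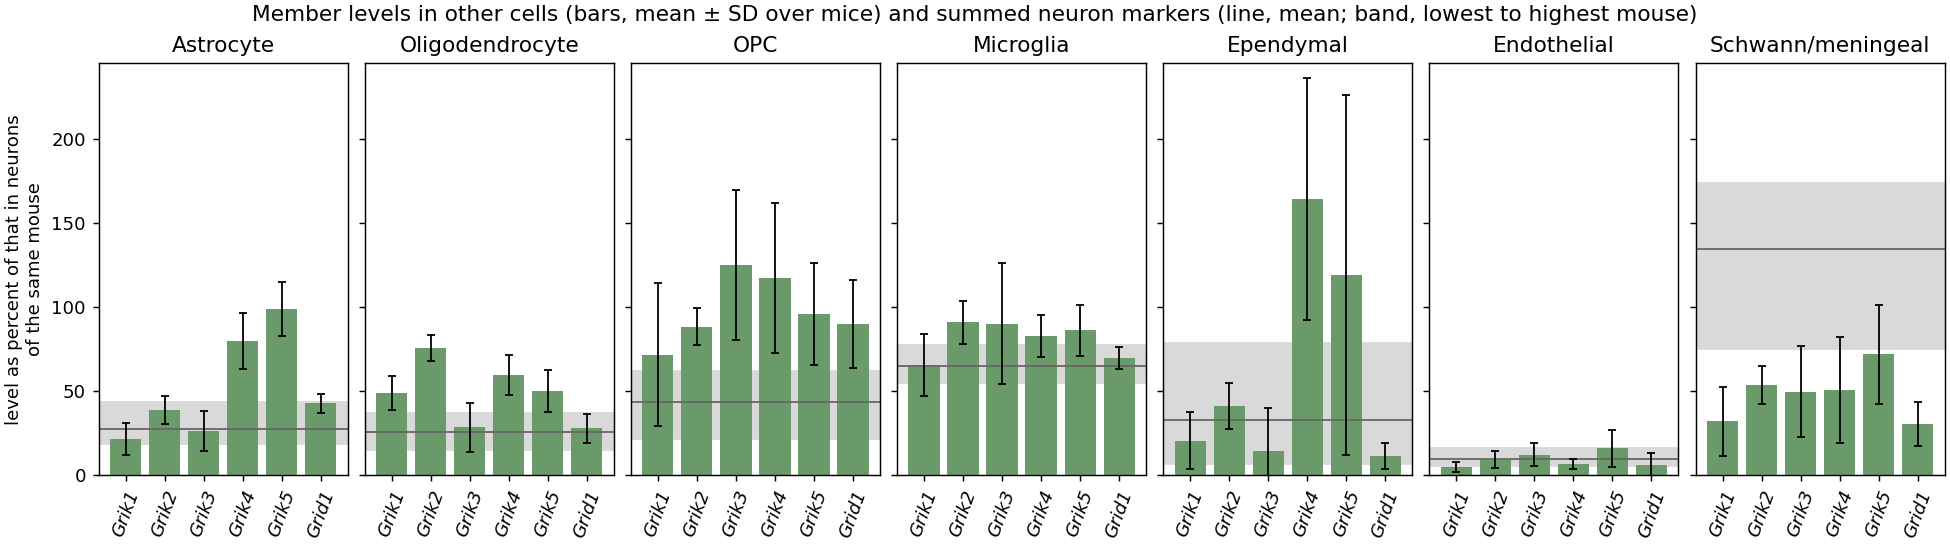
Level of each gene in 7 classes other than neurons as a percentage of the level in neurons of the same mouse (vertical axis from 0; bars, mean ± SD over mice), with the summed neuronal markers as a grey line (mean) and band (lowest to highest mouse). Grik4 and Grik5 in astrocytes and Grik2 in oligodendrocytes lie above the summed markers in all 12 mice. In microglia the markers are at 65.1% and the genes at 65.8% to 91.0%, and in the Schwann and meningeal class the marker sum of 135% is raised by Snap25 (427%), while the other 3 markers are at 45.6% to 61.2%.

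To ask whether these genes differed by genotype, summed UMIs of each mouse were tested in each cell type with limma across all genes that passed a filter on low counts, and genes with FDR < 0.1 are called DEGs. The 6 genes in 10 cell types gave 60 possible tests, of which 47 passed the filter. There was 1 DEG among them, Grik4 in motor neurons, which was lower in SOD1G93A. At an unadjusted p of 0.05, 6 of the 47 tests passed, 3 in each direction, where 7.18% of all tests did. The background differed by class. Of all genes tested, 3.07% were DEGs in motor neurons, 2.29% in astrocytes and 0.0385% in the other 8 types together. In motor neurons 1 of the 5 members tested was called, and with 5 genes this share cannot be set apart from that background.

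In neurons other than motor neurons, where the counts were deepest, the log2 changes of the 6 genes lay between -0.07 and 0.04, with standard errors of 0.08 to 0.10. All had an FDR near 1.

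**Figure D3:**
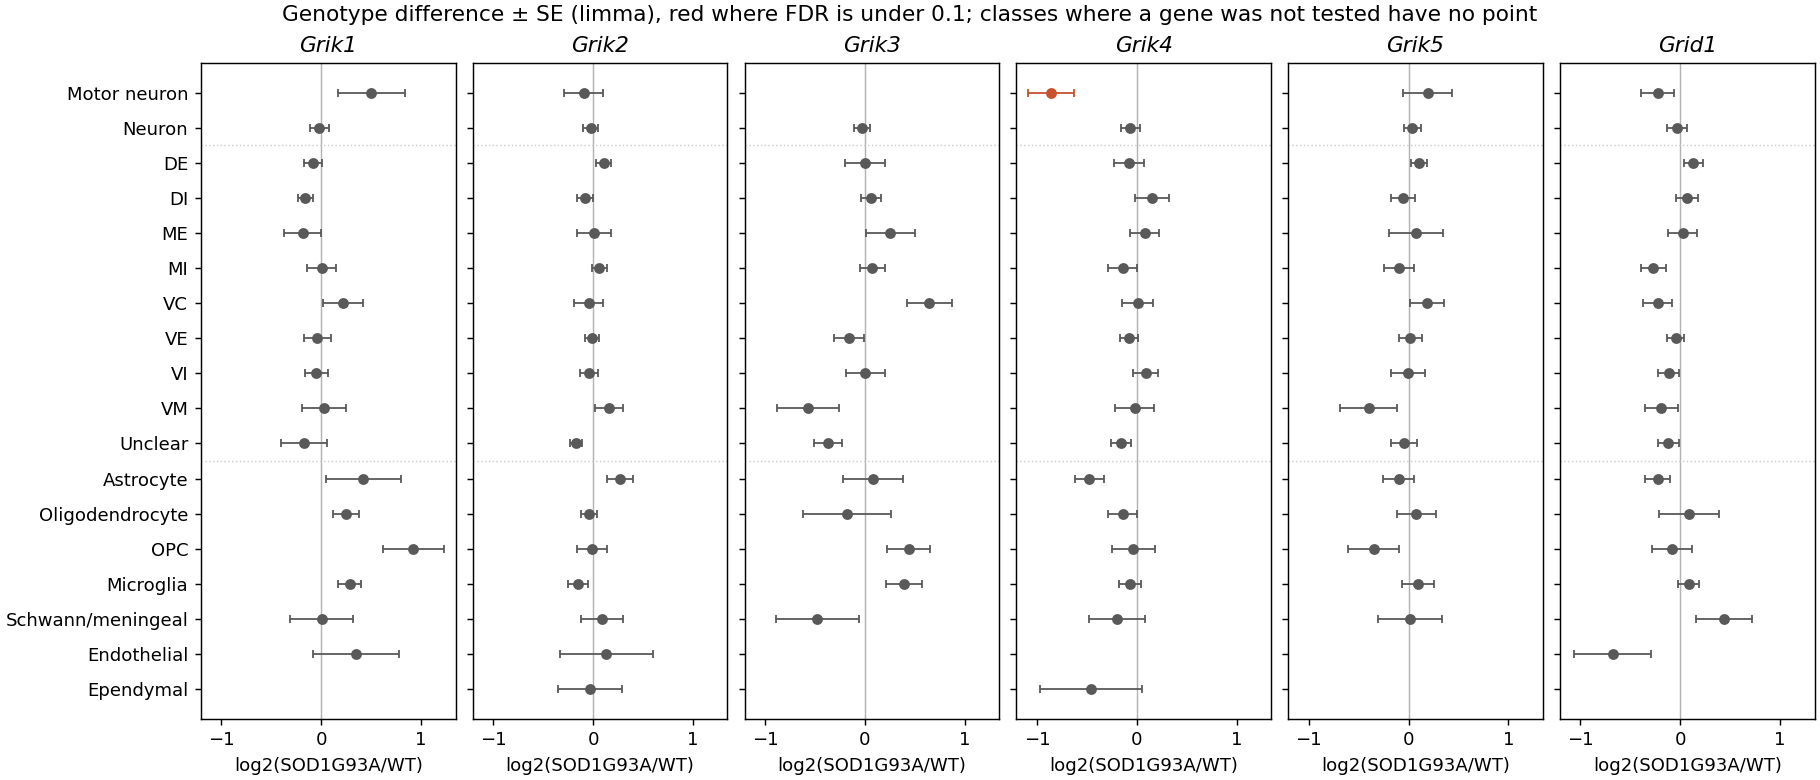
Change with genotype (log2, SOD1G93A over WT, horizontal axis) with its standard error for each gene, in motor neurons, the other neurons and their sub-types, and 7 further cell types (fibroblasts are left out), with no point where a gene was not tested. The estimates for neurons other than motor neurons lie near 0, and Grik4 in motor neurons is the only point in red (limma FDR under 0.1).

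In WT motor neurons the level of Grik4 had a lowest value of 342 CPM, a median of 511 CPM and a highest value of 825 CPM (n = 6 mice). In SOD1G93A motor neurons the lowest was 253, the median 278 and the highest 390 CPM (n = 6 mice). The groups overlapped, since 1 SOD1G93A male (pool C, 390 CPM) and 1 (pool B, 343 CPM) were above the lowest WT mouse, but within pairs SOD1G93A was lower in 6 of 6. Of all genes tested in motor neurons, 3.36% were lower in 6 of 6 pairs. The means were 551 ± 202 and 301 ± 54.6 CPM. The log2 change was -0.86 with a standard error of 0.23 (limma FDR = 0.0809).

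By pair, the widest gap was that of the females of pool A, with 265 CPM in SOD1G93A and 825 CPM in WT. The SOD1G93A mouse of this pair had 2 motor neuron nuclei, of 86431 and 98620 UMIs, and 49 Grik4 UMIs. The WT mouse had 7 nuclei, of 14410 to 39981 UMIs. The narrowest gap was that of the females of pool B, with 292 and 358 CPM. The females of pool C had 253 and 502 CPM, but the SOD1G93A mouse had 1 motor neuron nucleus and 7 Grik4 UMIs. Among males, the values were 262 and 342 CPM in pool A, 343 and 519 CPM in pool B, and 390 and 763 CPM in pool C. Within pools, the mean log2 difference of these CPM values (with 1 CPM added) was -1.01 in A, -0.44 in B and -0.98 in C. With TMMwsp-scaled levels it was -1.07, -0.50 and -1.29. All 3 pools had the same direction.

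The sums are made of single nuclei, so the values of these nuclei are a description and no separate evidence. They are pooled here over mice that gave 1 to 11 nuclei each. Grik4 had a median of 438 CPM over 44 WT nuclei (quartiles 350 and 753 CPM) and of 266 CPM over 23 SOD1G93A nuclei (quartiles 160 and 394 CPM). When every nucleus of a mouse had the same weight, the means over mice were 576 ± 220 and 278 ± 55.3 CPM. The mean log2 difference over the 6 pairs was then -0.98 ± 0.45 (SD), with a two-sided exact permutation p of 0.03125, the smallest that 6 pairs allow, and 0.1875 after Benjamini-Hochberg adjustment over the 6 genes. This test uses the same 6 pairs and is no separate evidence.

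The call had narrow support. It was lost in the fit without the term for pool (limma FDR = 0.106), and without the 2 SOD1G93A females that had fewer than 3 motor neuron nuclei (limma FDR = 0.438, change -0.79). Leaving out 1 mouse at a time moved the change between -1.08 and -0.65 and ended the call for 9 of 12 mice, with a limma FDR of up to 0.180. Of these 12 fits, it held in those without the SOD1G93A male of pool B, the WT female of pool B or the WT male of pool A. The direction did not change in any of these fits.

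Other properties of the motor neuron nuclei also differed by genotype. The nuclei had a median of 43895 UMIs in WT and of 60146 UMIs in SOD1G93A. Their median percentage of mitochondrial UMIs was 0.0693% in WT and 0.157% in SOD1G93A. Motor neuron markers summed to 1257 CPM in WT (1097 to 1649) and to 1518 CPM in SOD1G93A mice (680 to 2422). Markers of inhibitory neurons were at 13.1 and 45.5 CPM, and oligodendrocyte markers at 142 and 220 CPM. OPC markers were lower in SOD1G93A, as Grik4 was, with 1402 CPM in WT (1063 to 1646) and 1052 CPM in SOD1G93A (807 to 1255). Microglial markers were at 12.1 and 30.1 CPM. The sum of the general neuronal markers was 2288 CPM in WT and 2340 CPM in SOD1G93A. The part of these values in the Grik4 result was not tested.

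**Figure D4:**
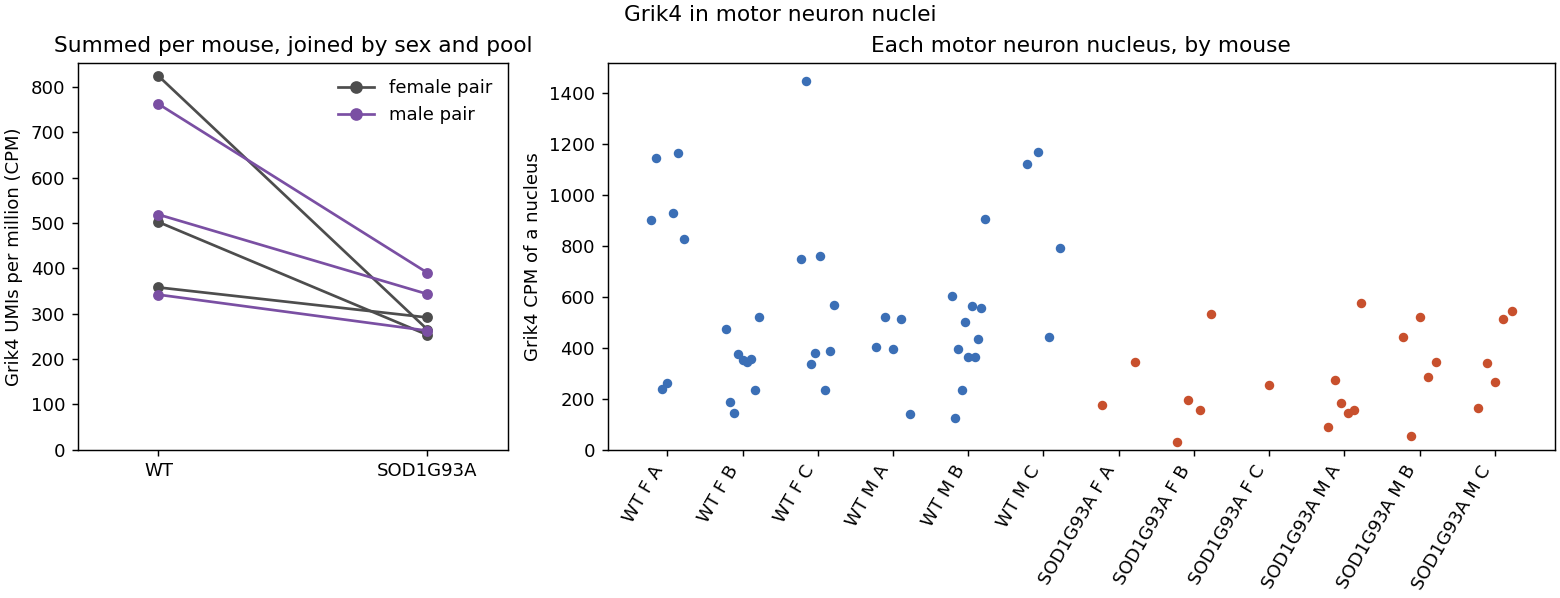
Level of Grik4 in motor neurons (CPM, vertical axes from 0), on the left as the sum of each mouse with the 6 pairs of WT and SOD1G93A mice joined by lines, and on the right as the value of each of the 67 nuclei by mouse (F, female; M, male; A to C, pool). SOD1G93A is lower in all 6 pairs. The medians over nuclei pooled from all mice of a genotype, 438 CPM in WT and 266 CPM in SOD1G93A, describe the same nuclei as the sums.

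Whether the change of Grik4 was particular to motor neurons was tested as the difference between its change there and in the other neurons of the same mice. Grik4 stood out by its change in motor neurons of these mice, so this test is no separate evidence of that change. This difference was -0.89 ± 0.36 (SD over 6 pairs) and negative in 6 of 6 pairs. The two-sided exact permutation p was 0.03125, the smallest that the design can give, and 0.1875 after Benjamini-Hochberg adjustment over the 6 genes, so the difference failed the correction. With 6 pairs and 6 genes, no single gene could reach a lower adjusted p on its own. The adjusted p of the other 5 genes ranged from 0.25 to 0.8125.

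In level, Grik4 was 0.91 ± 0.51 higher (log2) in motor neurons than in the other neurons over all 12 mice. That distance was 1.29 ± 0.41 in WT mice and 0.53 ± 0.24 in SOD1G93A mice. These distances come from the same mice and counts as the test above and are no separate evidence.

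The other genes in motor neurons did not pass the test. Grid1 had a median of 1222 CPM in WT (903 to 1518) and of 1113 CPM in SOD1G93A (984 to 1374), with a log2 change of -0.22 ± 0.17 (SE, limma FDR = 0.556). Grik2 had medians of 1841 and 1786 CPM and a change of -0.09 ± 0.20 (limma FDR = 0.874). For both genes the groups overlapped widely. Grik5 had a change of 0.19 ± 0.24. For Grik1 the direction was not settled. Its limma change was 0.50 ± 0.34 (SE), but the mean log2 difference over pairs was -0.70 ± 2.46 (SD), and it was lower in SOD1G93A in 3 of 6 pairs. Grik3 did not pass the count filter, with 8 UMIs in WT and 19 in SOD1G93A.

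In astrocytes, Grik4 missed the threshold. WT mice ranged from 136 to 272 CPM with a median of 177 CPM, and SOD1G93A mice from 110 to 168 CPM with a median of 149 CPM. The groups overlapped, with SOD1G93A lower in 5 of 6 pairs. The log2 change was -0.48 ± 0.15 (SE), with a limma FDR of 0.114. DESeq2 gave an adjusted p of 0.0962 for it and TMM scaling an FDR of 0.0982, so that this gene lies on the edge of the threshold. Grik2 in astrocytes had medians of 709 CPM in WT and 847 CPM in SOD1G93A and was higher in SOD1G93A in 6 of 6 pairs, with a change of 0.27 ± 0.13 (limma FDR = 0.375). The share of all genes that were higher in 6 of 6 pairs was not determined in astrocytes. The general neuronal markers in astrocytes were at 785 CPM in WT (601 to 1000) and 1056 CPM in SOD1G93A (653 to 1439), and the astrocyte markers at 994 and 1872 CPM. Oligodendrocyte markers in astrocytes were at 606 CPM in WT (454 to 847) and 871 CPM in SOD1G93A (684 to 1319). Their part in the values of Grik2 and Grik4 was not tested.

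In microglia, Grik1 had a median of 318 CPM in WT (207 to 347) and of 398 CPM in SOD1G93A (230 to 440), higher in SOD1G93A in 6 of 6 pairs. Its change of 0.29 ± 0.11 did not pass (limma FDR = 0.480). For microglia, too, the share of all genes that were higher in 6 of 6 pairs was not determined. The change of Grik3 in the same cells was 0.39 ± 0.18 (limma FDR = 0.622). The neuronal markers in microglia were at 2083 CPM in WT and 2245 CPM in SOD1G93A, and their part in these values was not tested.

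In OPCs, Grik1 had a median of 276 CPM in WT (217 to 395) and of 474 CPM in SOD1G93A (0 to 878). The change of 0.92 ± 0.31 had a limma FDR of 0.590, and mice contributed as few as 2 OPC nuclei. The neuronal markers in OPCs were at 1336 CPM in WT (1021 to 1548) and 1583 CPM in SOD1G93A (722 to 2092), and their part in the Grik1 value was not tested. In fibroblasts, Grik2 had a change of -1.75 ± 0.77 (limma FDR = 0.817) on 79 UMIs in all. Fibroblast markers in that class summed to 301 CPM in WT and 2469 CPM in SOD1G93A (up to 10653), and in WT oligodendrocyte markers (801 CPM) and neuronal markers (660 CPM) were above them. Their part in the Grik2 value was not tested.

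The neuron sub-types were tested in the same way. All 54 tests of 6 genes in 9 sub-types passed the filter, and limma called 0, as did edgeR and DESeq2. Over all genes 0.0252% of tests were called. At an unadjusted p of 0.05, 4 of the 54 tests passed, 1 higher and 3 lower in SOD1G93A, where 4.54% of all tests did, so that this count lies near the background. These were Grik3 in VC (0.64 ± 0.23), Grid1 in MI (-0.27 ± 0.13), and Grik2 (-0.17 ± 0.06) and Grik3 (-0.37 ± 0.14) in unassigned neurons. The smallest limma FDR was 0.735.

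Between sexes, limma called 0 of the 47 tests in cell types, where 0.159% of all tests were called, and edgeR and DESeq2 called 0 as well. At an unadjusted p of 0.05, 4 tests passed, where 5.56% of all tests did. The smallest limma FDR, 0.264, belonged to Grid1 in OPCs, with a log2 difference (female minus male) of -0.61 ± 0.20. For the interaction of genotype with sex, 0 of 47 tests were called by limma, edgeR or DESeq2, where 0.0058% of all tests were called. At an unadjusted p of 0.05, 5 tests passed, where 3.11% of all tests did. The smallest limma FDR was 0.924. In the neuron sub-types, limma, edgeR and DESeq2 called 0 of 54 tests between sexes, where limma called 0.0928% of all tests. At an unadjusted p of 0.05 in limma, 1 test passed, where 3570 of 75459 tests over all genes did. For the interaction in sub-types all 3 tools called 0 of 54, where limma called 0.0782% of all tests. Here 6 tests passed an unadjusted p of 0.05 in limma, where 3078 of 75459 tests over all genes did.

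Genes that act with these receptors were taken from lists of auxiliary proteins, ligands of delta receptors, RNA-editing enzymes and glutamate transport. Of 28 genes listed, 27 were in the table and 23 passed the filter in at least 1 cell type, in 142 tests. There was 1 DEG, Neto2 in astrocytes, higher in SOD1G93A, and 9 tests passed an unadjusted p of 0.05, where 7.18% of all tests did. By list, this was 1 of 49 tests for auxiliary proteins, 0 of 38 for ligands and presynaptic partners, 0 of 16 for editing enzymes and 0 of 39 for transport. Here 2.29% of all genes were called in astrocytes. In motor neurons 15 of the listed genes were tested, none was called, and their median log2 change was -0.08, beside a median of 0.00 over all genes tested there.

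Neto2 encodes an auxiliary subunit that slows the desensitization of kainate receptors. In WT astrocytes it ranged from 42.6 to 62.3 CPM with a median of 53.5 CPM. In SOD1G93A astrocytes it ranged from 54.7 to 126 CPM with a median of 88.3 CPM. The groups overlapped, and SOD1G93A was higher in 5 of 6 pairs. The log2 change was 0.70 ± 0.18 (SE, limma FDR = 0.0589). It rested on 20 to 98 UMIs per mouse, and DESeq2 gave it no adjusted p. The call ended without the SOD1G93A female of pool B, the SOD1G93A male of pool A or C, the WT female of pool A or any 1 of the 3 WT males, with a change of at least 0.50 and a limma FDR of up to 0.245. In the same nuclei the general neuronal and oligodendrocyte markers stood at the values given above for WT and SOD1G93A, and their part in the Neto2 result was not tested.

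**Figure D5:**
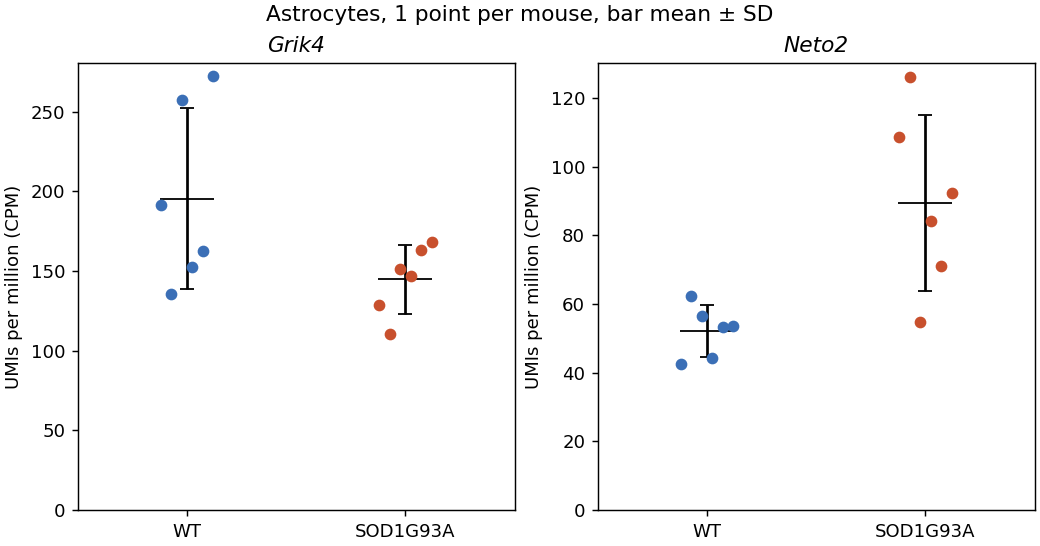
Levels of Grik4 and Neto2 in astrocytes (CPM, vertical axes from 0), with 1 point per mouse and the mean ± SD of each genotype in black. The mean of Grik4 is 195 CPM in WT and 145 CPM in SOD1G93A, that of Neto2 is 52.1 and 89.5 CPM, and for both genes the genotypes overlap.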

How the data were processed

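Lumbar spinal cord nuclei of 12 mice were profiled by single-nucleus RNA-seq. The authors called bases with bcl2fastq 2.20.0.422, aligned with STAR 2.5.1b through Cell Ranger 3.1 to a pre-mRNA mm10 reference, assigned nuclei to mice by hashtag, removed hashtag doublets, and annotated clusters in Seurat 4.0.3. They deposited UMI counts per nucleus, and the deposited percent of mitochondrial UMIs was used for description (mitochondrial genes are not in the table). The deposited normalized table was not used. UMI counts were summed per mouse and class and tested with limma 3.58.1 (voom weights, TMMwsp factors, a minimum count of 10, robust moderation) on genotype-by-sex groups with pool as a term, with Benjamini-Hochberg adjustment within a class at FDR < 0.1. Alternatives used edgeR 4.0.16 and DESeq2 1.42.0. The code was tested on simulated data. Pools are given by the labels, and same-pool mice deviated together in neurons (median r = 0.42 over 18 pairs, against -0.22 over 36 pairs from different pools). Gene spans came from GENCODE M21. Named genes were the members, called partner genes, 5 partner genes for levels, and the 3 genes most like each member. Of these last, 1 is not reported here. The members and lists were chosen with earlier results of these data known. Motor neurons gave 27658 to 651446 UMIs per mouse.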

Additional observations from a re-analysis of the deposited data

Results flagged for a closer look

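In 10 of the 204 groups of a gene, class and genotype that were examined, 1 mouse stood apart from the others of its group by Dixon's criterion for a gap relative to the range. Chance alone puts about 1 in 20 groups past this criterion. These mice are given by value, with the range of the other mice of the group. In neurons, Grik1 in DI was at 681 CPM in the SOD1G93A female of pool B (others 785 to 828 CPM). Grik1 in VI was at 534 CPM in the WT male of pool C (others 282 to 373 CPM). Grid1 in DI was at 359 CPM in the SOD1G93A female of pool C (others 252 to 290 CPM). In motor neurons, Grik2 was at 2643 CPM in the WT female of pool C (others 1679 to 1916 CPM), and Grik3 was at 15.2 CPM in the WT male of pool A (others 0 to 3.76 CPM), on 7 UMIs. In astrocytes, Grik2 was at 1330 CPM in the SOD1G93A female of pool A (others 765 to 918 CPM), and Grik3 was at 41.3 CPM in the WT male of pool C (others 15.3 to 18.9 CPM), on 20 UMIs. In the Schwann and meningeal class, Grik2 was at 1610 CPM in the SOD1G93A male of pool B (others 979 to 1138 CPM), and Grik3 was at 94.5 CPM in the SOD1G93A male of pool C (others 14.9 to 32.7 CPM). In endothelial cells, Grid1 was at 236 CPM in the WT male of pool B (others 26.1 to 56.1 CPM), on 101 UMIs.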

How the results depend on the processing

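Calls among the 6 genes in cell types numbered 1 in the reported fit, 2 with DESeq2, 2 with TMM factors, 2 without a count filter, and 0 with a minimum count of 30 or without the pool term (no replicate block). Leaving out 1 mouse gave 0 to 2. The added call was Grik4 in astrocytes, except without a filter, where it was Grik3 in motor neurons (1.97, FDR = 0.0180, on 27 UMIs). For Grik4 in motor neurons, the limma change was -0.72 at a minimum count of 30 (FDR = 0.133), -0.89 without the replicate block of pool (FDR = 0.106) and -0.79 without the 2 mice with under 3 nuclei (FDR = 0.438). edgeR gave -0.96 (FDR = 0.0785) and DESeq2 -0.94 (adjusted p = 0.05002). Leaving out 1 mouse gave -1.08 to -0.65, with FDR from 0.0170 to 0.180. The call held without the SOD1G93A male of pool B, the WT female of pool B or the WT male of pool A, and ended without any other mouse. Partner calls ranged from 0 to 3 with 1 mouse left out. Neto2 in astrocytes ranged from 0.50 to 0.88, and its call ended without the SOD1G93A female of pool B, the SOD1G93A males of pools A and C, the WT female of pool A or any WT male. The replicate block changed no call other than that of Grik4 in motor neurons.

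The difference between motor and other neurons turned for Grik1 to 0.15 without either female of pool C, for Grik2 to 0.047 without the same mice and to 0.02 with unscaled library sizes, and for Grik5 to -0.10 and -0.06 without the females of pools A and B. For Grik4 it stayed between -0.99 and -0.76. With 1 mouse left out, it ranged for Grik1 from -1.06, for Grik2 from -0.26 and for Grik5 up to 0.16. With factors fitted over all classes, the level of Grik2 in MI was 4702 CPM and that of Grid1 in DE 1547 CPM. With 1 mouse left out, Grik2 in MI stayed at 4019 to 4144 CPM. Calls among the 6 genes were 0 under every setting for genotype in sub-types, and for sex and the interaction in the 10 cell types. Motor neurons had 67 nuclei in all and 1 to 11 per mouse, which limits what can be read from single mice. The neuronal transcripts found in glia limit what can be read from low levels there.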

Other observations

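Levels of some partner genes over the same classes are given as a description. Neto1, an auxiliary subunit of kainate receptors, was at 262 ± 36.4 CPM in DI neurons and at 151 CPM in neurons as a whole. In motor neurons it was at 165 ± 97.5 CPM. Neto2 was at 123 ± 19.8 CPM in DI, 118 ± 22.7 CPM in MI and 116 ± 40.7 CPM in ME, which did not differ beyond their spread, and stood at 28.6 CPM in motor neurons. Of the cerebellins, ligands of delta receptors, levels are given for Cbln1 and Cbln2. Both were highest in the Schwann and meningeal class, at 31.6 ± 37.4 and 24.4 ± 13.2 CPM. Cbln1 was at 7.26 CPM in DE and 3.00 CPM in neurons as a whole, and Cbln2 was at 12.5 CPM in ME and 9.32 CPM in DE. Adarb1, the enzyme that edits the messages of GluK1 and GluK2, was at 176 ± 32.1 CPM in motor neurons and 174 CPM in VI, against 91.8 CPM in VC. Between sexes, 1 of 142 partner tests in the 10 cell types was called, where 0.159% of all tests were. This was Slc1a2, which encodes an astrocytic glutamate transporter, in the class labelled microglia. It was higher in females by 0.76 on the log2 scale (limma FDR = 0.0275). Its level in that class was 296 ± 96.3 CPM, against 5547 ± 635 CPM in astrocytes. In the neuron sub-types, 151 partner tests were made for each contrast. For genotype limma, edgeR and DESeq2 called 0 of them, where limma called 0.0252% of all tests. At an unadjusted p of 0.05, limma passed 14 of the 151, where 4.54% of all tests passed. Between sexes it called 1, where 0.0928% of all tests were called, and for the interaction 1, where 0.0782% were. Slc1a3, another glial glutamate transporter gene, was called between sexes in DI, higher in females by 1.10 (limma FDR = 0.0753). Only the limma result is given for Slc1a2 and Slc1a3, and the part of astrocyte transcripts in these calls was not tested. Nrxn3, a presynaptic partner gene, was called for the interaction of genotype with sex in unassigned neurons, by 0.56 (males minus females, limma FDR = 0.0574).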
